A study of Mus musculus with 26 samples.

Results

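The genes of fatty acid synthesis described here are 10 mouse genes, from the supply of acetyl-CoA to the desaturation of the finished chain, and were chosen by name. Their members are every probe set whose platform annotation names exactly 1 of these symbols, which gave 23 of the 45101 probe sets of the array and 10 of the 18193 genes that a probe set names alone. Total RNA of the tibialis anterior and extensor digitorum longus (TA/EDL), a pair of fast muscles of the shin, was hybridised to 1-colour Affymetrix arrays, 1 array for each of 26 mice. The mice were littermates of a mixed C57/BL6 and 129 background, kept 1 to a cage. Mice labelled MKO carry a skeletal muscle specific knockout of PGC-1a, a coactivator of mitochondrial genes, and mice labelled FLOX are their controls. The sources used here give neither the promoter that drives the deletion nor the ages. The calorie-restricted (CR) groups were 7 MKO and 6 FLOX mice. They ate 80% of their free intake in week 1, and then for about 11 weeks 60% of it as a diet formulated for 40% restriction. The control-diet groups were 7 MKO and 6 FLOX mice that ate 90% of their free intake over the same 12 weeks. No group of freely fed mice was used here, and controls and restricted mice shared the same base diet, AIN-93M.

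Fatty acids are built in the cytosol from citrate exported by mitochondria. ATP citrate lyase (Acly) splits citrate into acetyl-CoA, acetyl-CoA carboxylases (Acaca and Acacb) turn acetyl-CoA into malonyl-CoA, and fatty acid synthase (Fasn) joins these units into palmitate with NADPH that malic enzyme (Me1) helps to supply. Elovl6 lengthens palmitate, Scd1 and Scd2 place the first double bond, SREBP1 (Srebf1) is a transcription factor that switches on many of these genes, and Mid1ip1 binds acetyl-CoA carboxylase and promotes its polymerisation into the active form. Liver and fat tissue make most fatty acids, while in muscle fibres the malonyl-CoA made by Acacb is best known as a brake on the entry of fatty acids into mitochondria.

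On the chromosomes of the RefSeq annotation, Mid1ip1 lies on X, Fasn, Acaca, Acly and Srebf1 on 11, Acacb on 5, Scd1 and Scd2 on 19, Me1 on 9 and Elovl6 on 3. RefSeq promoter windows (build GRCm38.p6) were found for 8 of the 10 genes, 11 windows in all, and Scd1 and Scd2 had no entry in the table. The 250 bases before an annotated start are shown, 5′ to 3′ on the gene's strand, for the 2 genes that the diet changed and for 4 genes whose signals moved together from mouse to mouse (below, with values). Capitals mark CCAAT boxes (CCAAT) and GC boxes (GGGCGG) on either strand.
Mid1ip1, chrX:10717115-10717364, plus strand: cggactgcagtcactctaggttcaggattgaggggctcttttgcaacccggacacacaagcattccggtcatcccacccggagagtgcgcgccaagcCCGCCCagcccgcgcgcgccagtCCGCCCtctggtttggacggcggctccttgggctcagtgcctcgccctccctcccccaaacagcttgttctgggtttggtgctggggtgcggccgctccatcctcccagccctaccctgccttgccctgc
Me1, chr9:86695915-86696164, minus strand: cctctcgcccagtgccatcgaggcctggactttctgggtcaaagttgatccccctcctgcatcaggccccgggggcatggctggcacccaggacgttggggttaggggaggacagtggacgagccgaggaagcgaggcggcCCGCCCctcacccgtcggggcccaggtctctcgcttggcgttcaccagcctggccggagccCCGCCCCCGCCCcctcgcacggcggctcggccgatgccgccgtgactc
Fasn, chr11:120824548-120824797, minus strand: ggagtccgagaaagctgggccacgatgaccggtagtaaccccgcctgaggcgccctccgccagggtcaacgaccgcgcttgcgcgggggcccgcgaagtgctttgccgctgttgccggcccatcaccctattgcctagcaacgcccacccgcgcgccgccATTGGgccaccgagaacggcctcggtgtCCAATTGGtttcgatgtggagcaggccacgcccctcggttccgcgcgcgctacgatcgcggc
Acaca, chr11:84195188-84195437, plus strand: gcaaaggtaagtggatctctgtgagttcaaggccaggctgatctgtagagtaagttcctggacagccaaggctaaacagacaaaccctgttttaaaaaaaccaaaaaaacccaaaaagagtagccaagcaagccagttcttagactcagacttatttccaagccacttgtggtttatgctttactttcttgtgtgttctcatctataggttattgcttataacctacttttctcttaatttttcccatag
Acly, chr11:100528001-100528250, minus strand: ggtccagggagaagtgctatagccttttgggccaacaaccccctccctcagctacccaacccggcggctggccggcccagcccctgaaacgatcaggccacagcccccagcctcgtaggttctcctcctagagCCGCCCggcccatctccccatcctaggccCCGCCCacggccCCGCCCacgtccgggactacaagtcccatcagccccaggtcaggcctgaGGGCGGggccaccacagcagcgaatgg
Elovl6, chr3:129532136-129532385, plus strand: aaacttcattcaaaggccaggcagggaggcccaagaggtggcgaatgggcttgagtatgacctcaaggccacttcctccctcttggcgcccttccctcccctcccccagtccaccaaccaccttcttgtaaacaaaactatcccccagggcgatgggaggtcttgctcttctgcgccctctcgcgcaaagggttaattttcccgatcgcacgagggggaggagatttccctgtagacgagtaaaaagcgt
The window of Mid1ip1 held 2 GC boxes and that of Me1 shown here 3, of which a pair lies side by side. In the Acly window there were 4 GC boxes, and in the Fasn window 3 CCAAT boxes, of which a pair overlaps on opposite strands. Neither motif was found in the windows of Acaca and Elovl6. Base composition differed among the windows of the 4 genes that moved together: those of Fasn and Acly were 69.2% and 68.8% G or C, that of Elovl6 56.4%, and that of Acaca 39.2% with 0 CpG pairs, against a median of 52.4% over all 32851 windows of the table. No other window was found for Acaca, and whether its annotated start is used in muscle was not tested. A CCAAT box was present in 5 of the 11 member windows (33.8% of all windows) and a GC box in 5 of 11 (32.7%). The E-box CACGTG, the sequence that ChREBP and USF factors are known to bind, was in 0 of 11 (6.02% of all windows), and the sterol response core TCACNCCAC, bound by SREBP proteins, in 0 of 11 (1.05%). These are matches of letters in 1 window of fixed length per annotated start, and 0 matches says only that the letters are not in that window.

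The deposited values were linear intensities, 1 per probe set and mouse. Array medians lay between 212 and 232, no value was at or below 0, and within a group the arrays had correlations of 0.984 to 0.996 across the 14854 tested genes. Muscle fibre markers (15 genes, from Ckm to Mylpf) summed to between 383223 and 402932 on every array, with at most 2 called in a comparison. Many of them lie near the top of the scale. Acta1 ran from 37243 to 38435, the same bounds as the array maxima, so this sum says little about differences in fibre content. For the label check, the 5 probe sets of Ppargc1a, the gene of PGC-1a, gave signals 1.34- to 1.57-fold (CR) and 1.53- to 1.76-fold (control diet) higher in mice labelled MKO than in FLOX mice. The sources used here do not say where these probe sets lie relative to the deleted part, so they check nothing, and the mice are called labelled MKO (MKO for short) only after their labels. One array stood apart in the genes described here. In control-diet FLOX mouse 3, Fasn, Acaca, Acly, Scd1 and Elovl6 had the highest value of all 26 arrays, and so did the mean of the adipocyte markers (9.14 on the log2 scale). Its mean correlation with the other arrays of its group was 0.991, against 0.992 to 0.993 for the other 5 control FLOX mice. The values that moved most without this mouse are given both with and without it.

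Genes were compared with limma on log2(intensity + 16), and a gene is said to have risen or fallen where its p adjusted over all 14854 genes was under 0.05. All 10 members passed the filter on low values, and 20 of their 23 probe sets did. For each gene the brightest passing probe set was tested. The values of each mouse are shown in the plot of the 10 genes.

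**Figure D1:**
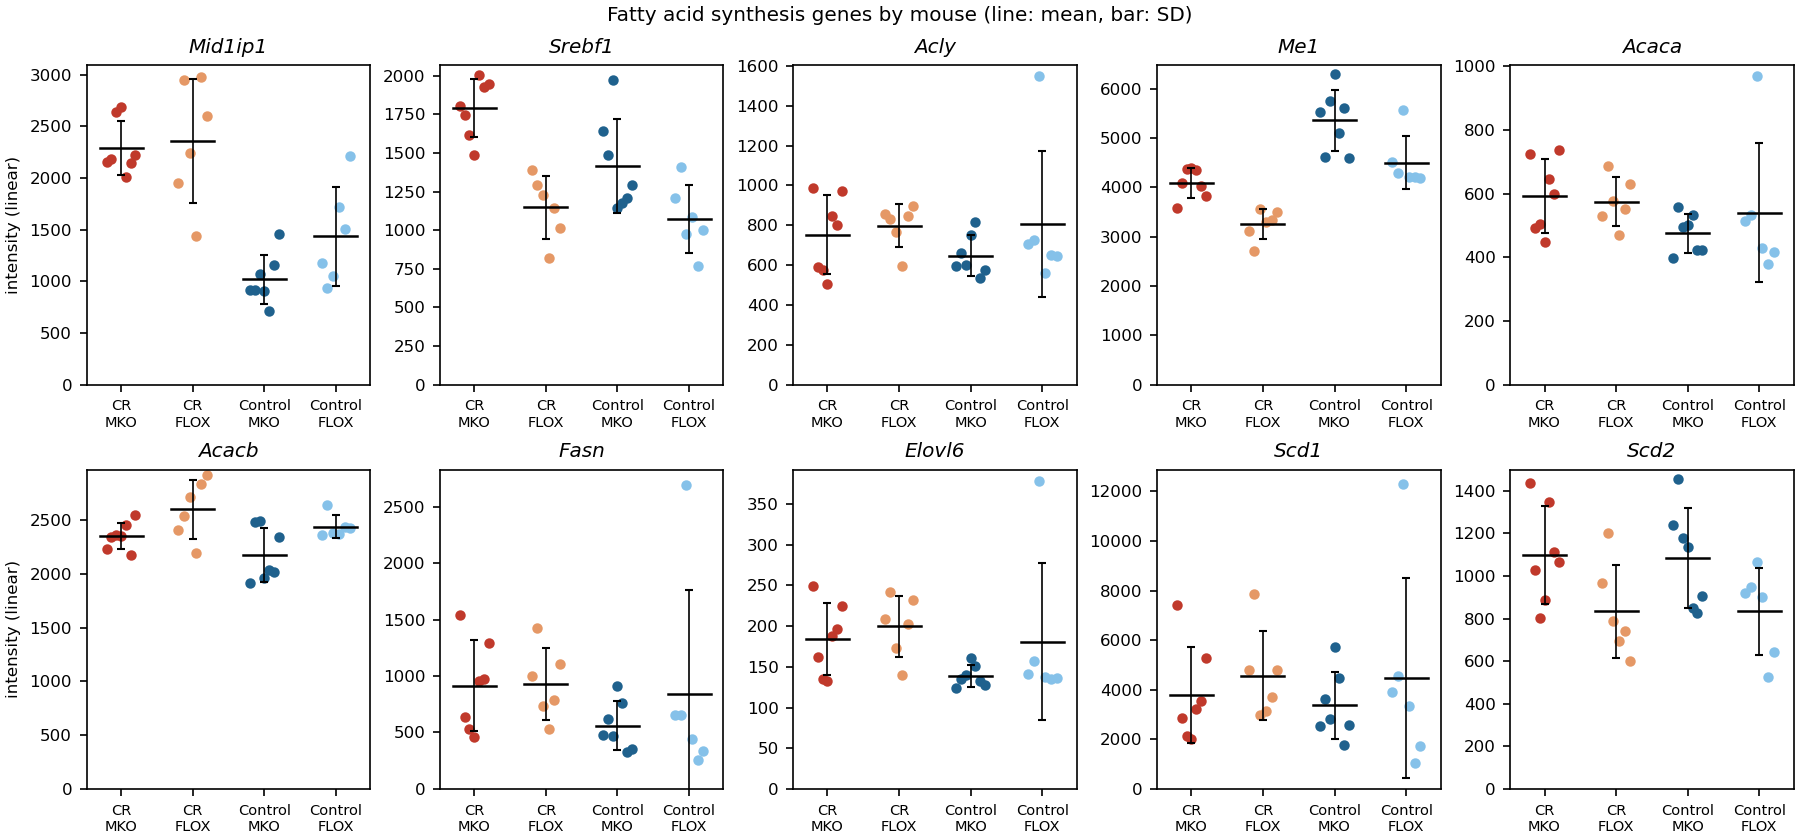
Deposited intensity (linear) of the tested probe set of each of the 10 genes in every mouse, by group, with the mean as a line and the SD as a bar (n = 7, 6, 7 and 6 mice from left to right; the SD bar of Fasn in control-diet FLOX mice runs below 0 and is clipped). Mid1ip1 lies higher and Me1 lower in both CR groups, Srebf1 lies highest in CR MKO mice, and 1 control-diet FLOX mouse lies far above the others of its group for Fasn, Acly, Scd1, Elovl6 and Acaca.

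Calorie restriction was followed by a rise of Mid1ip1 and a fall of Me1 in MKO mice and in FLOX mice, and the other 8 genes did not pass the test in either. That is 2 of 10 genes (1 higher, 1 lower) in MKO mice, where 15.1% of all tested genes were called (6.64% higher and 8.48% lower), and 2 of 10 (1 higher, 1 lower) in FLOX mice, where 10.0% were (4.66% higher and 5.37% lower). With 10 genes, a count of 2 is near these backgrounds. After quantile normalization Srebf1 was called in MKO mice as well (2 higher, 1 lower). The median log2 change of the 10 genes was 0.24 in MKO mice and 0.12 in FLOX mice, against 0.00 for all genes in both. The order of these medians rested on 1 mouse: without control-diet FLOX mouse 3 the median was 0.24 in MKO mice and 0.30 in FLOX mice, and leaving out any 1 mouse gave 0.18 to 0.31 in MKO mice and 0.06 (without control-diet FLOX mouse 5) to 0.30 in FLOX mice.

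Mid1ip1, read by a single probe set (1416840_at), had the strongest rise. Its intensity ran from 2005 to 2686 in CR MKO mice (median 2185), and from 709 to 1462 in control-diet MKO mice (median 917). In CR FLOX mice it ran from 1438 to 2977 (median 2420), and in control-diet FLOX mice from 934 to 2217 (median 1343). All 7 CR MKO mice therefore lay above every control-diet MKO mouse, while 4 of the 6 CR FLOX mice lay above every control-diet FLOX mouse. What share of all genes separates as fully was not counted, for Mid1ip1 or for Me1, Srebf1 and the other genes below. Mid1ip1 averaged 2291 ± 262 in CR MKO mice and 1019 ± 241 in control-diet MKO mice (SD, n = 7 each), a rise of 2.27-fold (log2 change 1.18 ± 0.17 SE, limma adjusted p = 3.38e-05). It averaged 2359 ± 603 in CR FLOX mice and 1435 ± 481 in control-diet FLOX mice (SD, n = 6 each), a rise of 1.66-fold (log2 change 0.73 ± 0.18 SE, adjusted p = 0.0110). The larger rise in MKO mice did not pass as a difference: MKO mice exceeded FLOX mice in diet effect by 0.45 on the log2 scale (95% interval -0.07 to 0.97, unadjusted p = 0.0853, adjusted p = 0.999). Leaving out any 1 mouse kept both diet calls, with adjusted p of at most 0.000122 in MKO mice and at most 0.0366 in FLOX mice.

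Mid1ip1 had similar means on CR in both genotypes. The estimated genotype difference was larger on the control diet, but the gap between the diets is the same contrast that did not pass above. On CR, the log2 difference of MKO minus FLOX was -0.01 (95% interval -0.37 to 0.36, adjusted p = 0.989). For control-diet mice it was -0.46 (95% interval -0.82 to -0.09, unadjusted p = 0.0165, adjusted p = 0.0737), and 4 of 7 MKO mice lay below every FLOX mouse. That difference passed without control-diet FLOX mouse 3 (-0.53, adjusted p = 0.0428), and leaving out control-diet FLOX mouse 2, control-diet MKO mouse 7 or CR FLOX mouse 4 also brought it under the threshold (the first 2 at adjusted p = 0.0300 and 0.0307).

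The 5 genes whose log2 values followed Mid1ip1 most closely over the 26 arrays were Idh1, the cytosolic NADP-dependent isocitrate dehydrogenase (Pearson's r = 0.89), Mrpl2, a protein of the mitochondrial ribosome (0.89), Prodh, which degrades proline (0.89), Fry (0.84) and Phykpl, an enzyme of hydroxylysine breakdown (0.83). These arrays share the 4 groups, so the diet difference of each gene enters its r. Idh1 rose on CR in both genotypes, to 1249 ± 98.4 in CR MKO mice against 801 ± 66.4 in control-diet MKO mice (log2 change 0.63, adjusted p = 6.30e-07), and to 1270 ± 78.8 in CR FLOX mice against 950 ± 134 in control-diet FLOX mice (log2 change 0.42, adjusted p = 0.000398). Idh1 makes NADPH in the cytosol, as Me1 does.

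Me1 moved against Mid1ip1. Its tested probe set (1416632_at) ran from 3578 to 4396 in CR MKO mice (median 4082), against 4598 to 6294 in control-diet MKO mice (median 5526). In CR FLOX mice it ran from 2716 to 3555 (median 3313), against 4195 to 5574 in control-diet FLOX mice (median 4256). CR and control-diet mice did not overlap in either genotype. Me1 averaged 4089 ± 309 in CR MKO mice and 5354 ± 622 in control-diet MKO mice (SD, n = 7 each), so that it fell by 0.38 on the log2 scale (SE 0.07, adjusted p = 0.000754). It averaged 3252 ± 308 in CR FLOX mice and 4500 ± 539 in control-diet FLOX mice (SD, n = 6 each), and fell by 0.46 (SE 0.08, adjusted p = 0.000405). Without control-diet FLOX mouse 3, the highest of its group, the change in FLOX mice was -0.40 (adjusted p = 0.00133). The second Me1 probe set (1430307_a_at) fell by 0.52 in MKO mice and by 0.68 in FLOX mice, with adjusted p over all 34945 single-gene probe sets of 5.94e-05 and 1.35e-05.

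The genotype comparison moved a different pair. Srebf1 and Me1 were higher in MKO than in FLOX mice on both diets, and no member was lower at this threshold. Among CR mice that is 2 of 10 genes (2 higher, 0 lower), where 17.3% of all tested genes were called (8.23% higher and 9.05% lower). Among control-diet mice it is again 2 of 10 (2 higher, 0 lower), where 19.3% were (9.05% higher and 10.2% lower). Both counts are near the share over all genes. Under quantile normalization the control-diet call of Me1 was lost and that of Acacb, lower, was gained, a split of 1 higher and 1 lower. The median log2 difference of the 10 genes was -0.04 on CR and -0.14 on the control diet, against -0.02 for all genes on both. Neither sign was stable: without control-diet FLOX mouse 3 the control-diet median was 0.16, and over all mice left out in turn the median ran from -0.16 (without CR FLOX mouse 4) to 0.06 (without CR FLOX mouse 2) on CR and from -0.24 (without control-diet FLOX mouse 5) to 0.16 on the control diet. The genotype and diet comparisons use the same mice, so their values are given side by side and not counted as separate support.

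Srebf1, the gene of SREBP1, was read by 1 probe set (1426690_a_at), which cannot separate the isoforms SREBP1a and SREBP1c. Its intensity ran from 1486 to 2006 in CR MKO mice (median 1802) and from 822 to 1392 in CR FLOX mice (median 1185). On the control diet it ran from 1147 to 1971 in MKO mice (median 1294) and from 770 to 1410 in FLOX mice (median 1042). Genotypes did not overlap on CR, and on the control diet 3 of 7 MKO mice lay above every FLOX mouse. Srebf1 averaged 1790 ± 189 in CR MKO mice (SD, n = 7) and 1148 ± 205 in CR FLOX mice (SD, n = 6), which is 1.57-fold higher (log2 difference 0.65 ± 0.13 SE, adjusted p = 0.000803). It averaged 1418 ± 303 in control-diet MKO mice (SD, n = 7) and 1074 ± 219 in control-diet FLOX mice (SD, n = 6), which is 1.31-fold higher (log2 difference 0.39 ± 0.13 SE, adjusted p = 0.0346). The control-diet call was not firm: it was lost without control-diet FLOX mouse 3 (adjusted p = 0.0622) and without each of 5 other control-diet mice in turn (up to 0.115), while the call on CR was kept without any 1 mouse (at most 0.00347).

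The diet effect on Srebf1 did not pass in either genotype. In MKO mice the log2 change on CR was 0.35 (95% interval 0.09 to 0.61, unadjusted p = 0.00986, adjusted p = 0.0601), and in FLOX mice it was 0.10 (95% interval -0.18 to 0.38, adjusted p = 0.743). The difference between these diet effects was 0.25 (unadjusted p = 0.185, adjusted p = 0.999).

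For Me1, MKO mice lay above FLOX mice on both diets, at the lower level that both genotypes had on CR and at the higher level of the control diet. All 7 CR MKO mice were above every CR FLOX mouse (log2 difference 0.33 ± 0.08 SE, adjusted p = 0.00293). On the control diet 3 of 7 MKO mice were above every FLOX mouse (log2 difference 0.25 ± 0.08 SE, adjusted p = 0.0226). The second probe set differed by 0.36 on CR (adjusted p = 0.00256) and by 0.20 on the control diet, where it did not pass (adjusted p = 0.109). Without control-diet FLOX mouse 3 the control-diet difference of the tested probe set was 0.31 (adjusted p = 0.00298). Leaving out control-diet FLOX mouse 4, 5 or 6 or control-diet MKO mouse 4 ended that call (adjusted p = 0.0511 to 0.0597), and so did the mean of adipocyte markers as a covariate (0.22, adjusted p = 0.0729).

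**Figure D2:**
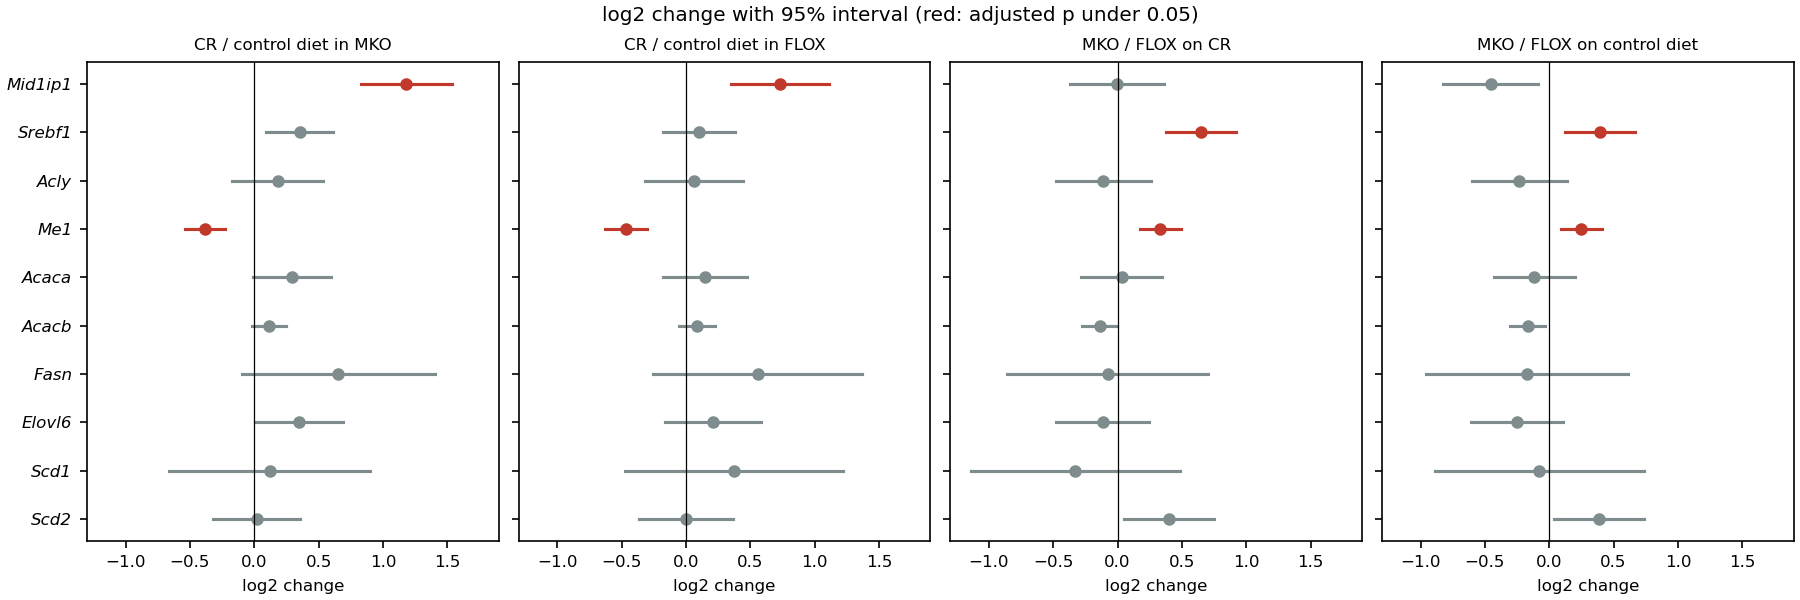
Log2 change of each gene (x axis) in the 4 comparisons, as limma estimates with 95% intervals, CR over control diet in MKO and in FLOX mice and MKO over FLOX on CR and on the control diet. Red marks an adjusted p under 0.05: Mid1ip1 (1.18 and 0.73) and Me1 (-0.38 and -0.46) for the diet, Srebf1 (0.65 and 0.39) and Me1 (0.33 and 0.25) for the genotype. The intervals of Fasn and Scd1 are the widest.

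Scd2, a stearoyl-CoA desaturase, was the other member whose probe sets, 3 in all, lay higher in MKO mice on both diets. Scd2 (1415822_at) averaged 1098 ± 229 in CR MKO mice (SD, n = 7) and 833 ± 218 in CR FLOX mice (SD, n = 6). The control-diet means were 1085 ± 233 in MKO mice (SD, n = 7) and 834 ± 205 in FLOX mice (SD, n = 6). Genotypes overlapped on both diets, and neither difference passed (log2 0.40 on CR, unadjusted p = 0.0263, adjusted p = 0.110; 0.39 on the control diet, unadjusted p = 0.0324, adjusted p = 0.117). The CR difference passed without CR FLOX mouse 2 (0.51, adjusted p = 0.0417), and both passed with the mean of adipocyte markers as a covariate (0.55 on CR, adjusted p = 0.00825; 0.60 on the control diet, adjusted p = 0.00652). Of the other 2 probe sets, 1415823_at differed by 0.38 and 0.29 and 1415824_at by 0.22 and 0.20 on CR and on the control diet, with adjusted p between 0.0612 and 0.274. The diet differences of Scd2 were 0.02 in MKO mice and 0.00 in FLOX mice. Scd1 and Scd2 are close paralogues, and whether their probe sets bind each other's transcripts was not tested.

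Acacb, the carboxylase of the mitochondrial surface and the main one in muscle, varied little between mice and passed in no comparison with all mice and the settings above. Its tested probe set (1427052_at) averaged 2353 ± 125 in CR MKO mice and 2603 ± 274 in CR FLOX mice, and 2180 ± 252 in control-diet MKO mice and 2438 ± 106 in control-diet FLOX mice (SD, n = 7, 6, 7 and 6). The genotype differences were -0.14 on CR (adjusted p = 0.155) and -0.17 on the control diet (adjusted p = 0.0756), where 5 of 7 MKO mice lay below every FLOX mouse. The control-diet difference passed, as lower in MKO mice, after quantile normalization (-0.19, adjusted p = 0.0294), with the number in the array title as a replicate block (-0.19, adjusted p = 0.0296) and without control-diet MKO mouse 2 or 3 (adjusted p = 0.0324 and 0.0316), and the CR difference without CR FLOX mouse 4 (-0.19, adjusted p = 0.0482). The diet differences were 0.12 in MKO mice (adjusted p = 0.247) and 0.09 in FLOX mice (adjusted p = 0.504). The 95% intervals of the diet differences were -0.01 to 0.25 and -0.05 to 0.23.

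The remaining 5 enzymes, Fasn, Acaca, Acly, Elovl6 and Scd1, passed in no comparison with all mice and the settings above. Fasn and Scd1 spread widely between mice, with SEs of 0.37 and 0.38 for the diet change in MKO mice. Those of Acaca (0.15), Acly (0.17) and Elovl6 (0.17) were no larger than that of Mid1ip1 (0.17). Fasn (1423828_at) ran from 460 to 1538 in CR MKO mice (median 958), against 331 to 909 in control-diet MKO mice (median 475). In CR FLOX mice it ran from 528 to 1421 (median 895), against 253 to 2689 in control-diet FLOX mice (median 550). The medians were higher on CR in both genotypes, but the ranges overlapped. The log2 change of Fasn on CR was 0.65 ± 0.37 SE in MKO mice (adjusted p = 0.260) and 0.56 ± 0.39 SE in FLOX mice (adjusted p = 0.450).

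Elovl6 (1417404_at) had medians of 188 in CR MKO mice and 135 in control-diet MKO mice, with 5 of 7 CR mice above every control-diet mouse, and a log2 change of 0.35 (unadjusted p = 0.0487, adjusted p = 0.182). In FLOX mice the medians were 205 on CR and 140 on the control diet, and the change was 0.21 (adjusted p = 0.557). Acaca (1434185_at) had medians of 598 in CR MKO mice and 494 in control-diet MKO mice, and of 564 in CR FLOX mice and 471 in control-diet FLOX mice. Its changes were 0.30 in MKO mice (adjusted p = 0.198) and 0.15 in FLOX mice (adjusted p = 0.659). For Acly (1451666_at), medians were 802 in CR MKO mice and 599 in control-diet MKO mice, and 837 in CR FLOX mice and 677 in control-diet FLOX mice, with changes of 0.18 (adjusted p = 0.547) and 0.06 (adjusted p = 0.896). Scd1 (1415964_at) had medians of 3222 in CR MKO mice and 2819 in control-diet MKO mice, and of 4262 in CR FLOX mice and 3621 in control-diet FLOX mice, with changes of 0.12 (adjusted p = 0.885) and 0.37 (adjusted p = 0.669). In all 5 enzymes the CR median was above the control-diet median in both genotypes, while no mean change passed. Between genotypes their log2 differences ran from -0.33 (Scd1) to 0.03 (Acaca) on CR and from -0.25 (Elovl6) to -0.08 (Scd1) on the control diet, where 3 of the 5 changed sign without 1 mouse, as given next.

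Control-diet FLOX mouse 3 bears on these values. It had 2689 for Fasn, 12285 for Scd1, 1548 for Acly, 970 for Acaca and 378 for Elovl6, while the highest of the other 5 mice of its group had 657, 4550, 727, 532 and 157. Without it the log2 changes on CR in FLOX mice were 0.99 for Fasn (adjusted p = 0.0520), 0.75 for Scd1 (0.241), 0.33 for Acaca (0.101), 0.27 for Acly (0.320) and 0.43 for Elovl6 (0.0363). The control-diet differences between genotypes became 0.26 for Fasn (-0.17 with the mouse), 0.30 for Scd1 (-0.08), 0.07 for Acaca (-0.11), -0.03 for Acly (-0.23) and -0.03 for Elovl6 (-0.25), and none passed either way. Elovl6 then passed in both genotypes, with an adjusted p of 0.0383 in MKO mice, where its change stayed at 0.35, since the spread is estimated over all 4 groups together. These Elovl6 values are of the tested probe set alone, whose group means (139 to 200) lay below the array medians of 212 to 232. The mouse is kept in all other values, since its label and its overall correlation gave no reason to drop it.

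**Figure D3:**
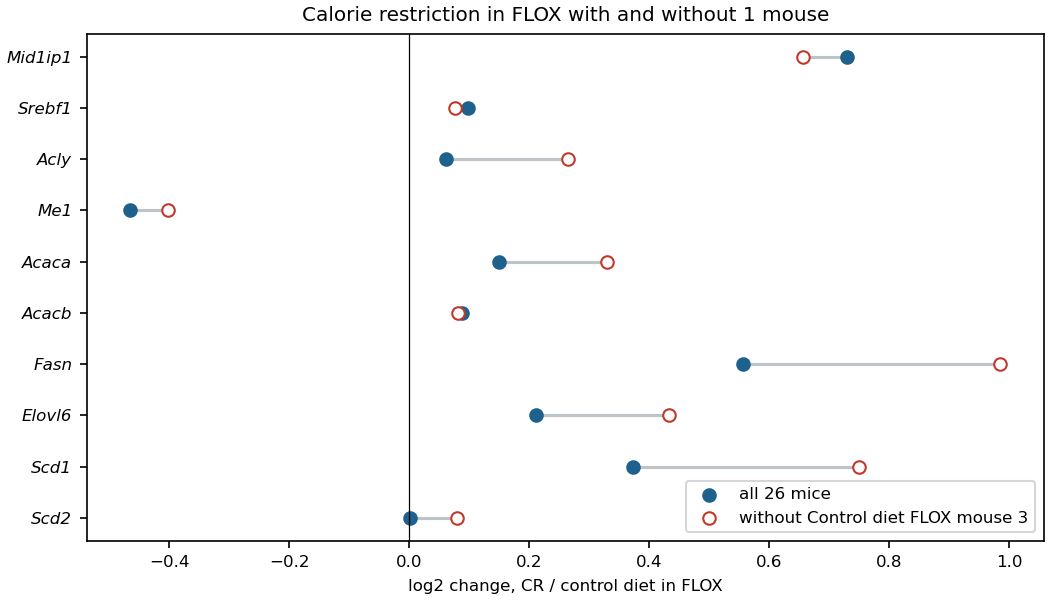
Log2 change on CR in FLOX mice (x axis) for each of the 10 genes, with all 26 mice (filled) and without control-diet FLOX mouse 3 (open). Without that mouse Fasn moves to 0.99 and Scd1 to 0.75, while Mid1ip1 moves to 0.66 and Me1 to -0.40.

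These 5 enzymes varied together from mouse to mouse within groups. After each group's mean was subtracted, Pearson's r among the 5 ranged from 0.80 to 0.96 over the 10 pairs (26 arrays), and from 0.69 to 0.95 without control-diet FLOX mouse 3. Their r with the mean log2 value of the adipocyte markers ranged from 0.72 (Acly) to 0.88 (Scd1), and from 0.56 to 0.83 without that mouse. With Mid1ip1, the member that the diet raised, their r lay between -0.41 and -0.20, or between -0.34 and -0.02 without that mouse. Scd2 had r = 0.61 with the adipocyte mean and 0.66 with Srebf1. Acacb, Srebf1 and Me1 had r of -0.02, 0.17 and -0.18 with the adipocyte mean, and Me1 had -0.63 without that mouse. These values describe the arrays, which share their muscle sample, labelling and scaling across genes, and are not tests.

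**Figure D4:**
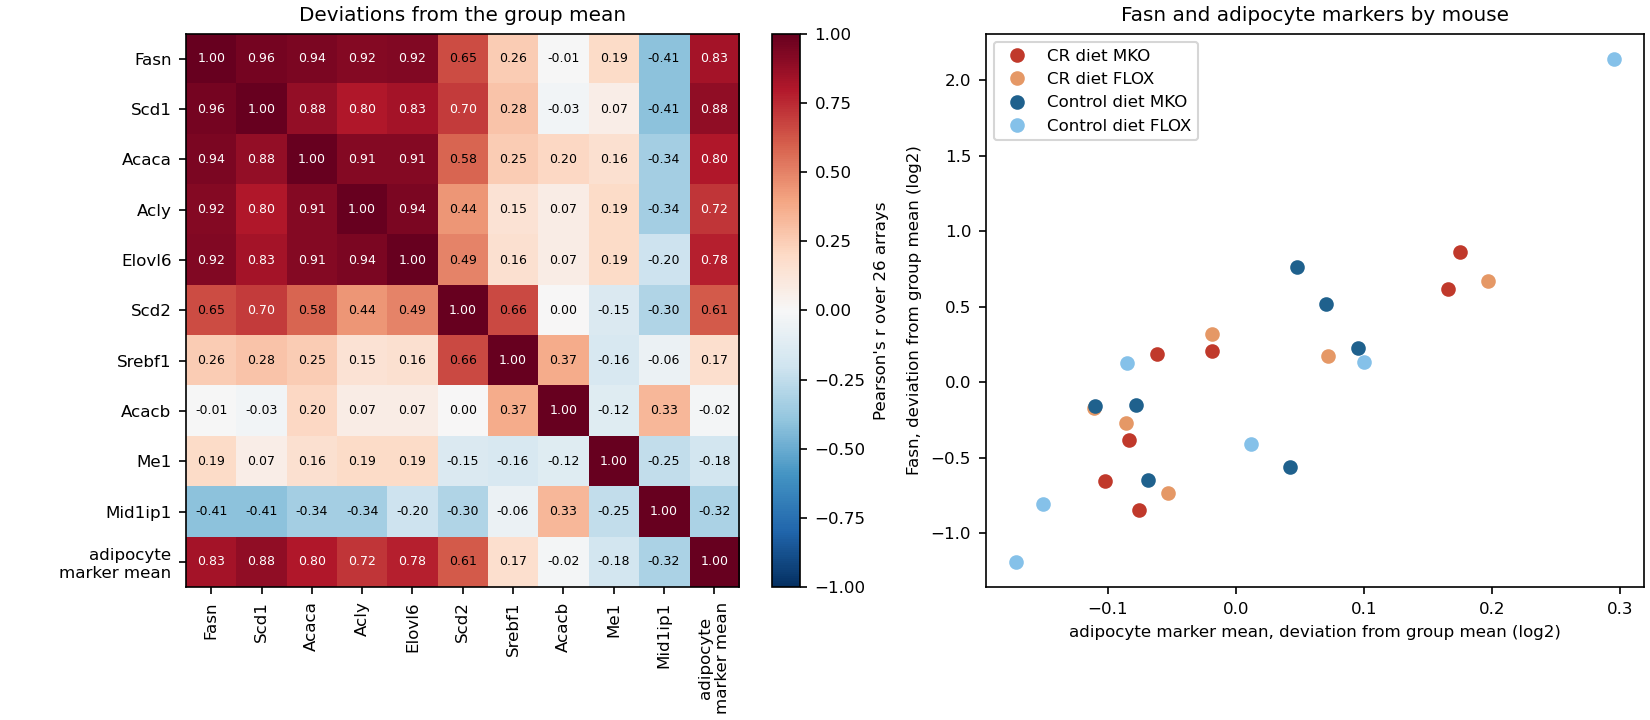
Left, Pearson's r over 26 arrays between deviations from the group mean (log2) of the 10 genes and the adipocyte marker mean. The block from Fasn to Elovl6 holds r of 0.80 to 0.96, and the row of Mid1ip1 against it is negative. Right, the deviation of Fasn (y axis, log2) against that of the adipocyte marker mean (x axis, log2), 1 point per mouse; the point at the top right is control-diet FLOX mouse 3.

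Adipocytes express all of these enzymes strongly, so markers of fat cells were read on the same arrays. Of 22 adipocyte markers 16 were tested, 3 (Lep, Acvr1c and Nnat) lay under the filter and 3 (Cfd, Plin1 and Adrb3) were not analysed here. Adipoq, the gene of the fat cell hormone adiponectin, ran from 235 to 624 in CR MKO mice (median 323), from 238 to 669 in CR FLOX mice (median 337), from 216 to 483 in control-diet MKO mice (median 378) and from 148 to 991 in control-diet FLOX mice (median 431). Its group medians thus lay above the array medians of 212 to 232. Single mice did not all do so: Adipoq was lowest in control-diet FLOX mouse 5 (148) and highest in control-diet FLOX mouse 3. Cidec, a protein of fat droplets, lay between 172 and 223 and Lep, the gene of leptin, between 106 and 164 on all arrays, which is near or below the array medians.

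The summed intensity of the 16 markers ran from 14771 to 17984 in CR MKO mice, from 15807 to 18272 in CR FLOX mice, from 13033 to 15883 in control-diet MKO mice and from 14371 to 18435 in control-diet FLOX mice. Fabp4 alone averaged between 7012 (CR MKO mice) and 7878 (control-diet FLOX mice), so it weighs heavily in these sums. Plin4 and Apod also lay far above the array medians of 212 to 232. Other markers were dim: the group means of Aqp7 (165 to 186) and Cidea (147 to 215) lay near or below those medians. The mean log2 value of the 16 markers was 8.81 ± 0.12 in CR MKO mice, 8.90 ± 0.12 in CR FLOX mice, 8.71 ± 0.08 in control-diet MKO mice and 8.84 ± 0.18 in control-diet FLOX mice (SD). It differed by 0.10 between diets in MKO mice and by 0.06 in FLOX mice, and by -0.09 between genotypes on CR and -0.13 on the control diet. Exact two-sided permutation tests over mice, adjusted over the 4 comparisons, gave p of 0.199, 0.509, 0.248 and 0.199. Without control-diet FLOX mouse 3 the diet difference in FLOX mice was 0.12 and the genotype difference on the control diet -0.07, with adjusted p of 0.232 for both. Other mice left out moved the diet difference in FLOX mice down to 0.02 (without CR FLOX mouse 2), and the same mouse moved the genotype difference on CR to -0.05. With Adipoq and Cidec alone the diet difference in FLOX mice was -0.10 (adjusted p = 0.924). Among single markers, Cyp2e1 rose on CR in MKO mice and Plin4 and Apod in FLOX mice, Cidea and Lipe were lower in MKO mice on both diets and Rbp4 on the control diet. Their part in the results above was not tested, and in such bulk samples fewer cells of a type and less RNA per cell cannot be told apart. With the adipocyte mean as a covariate the diet changes of Mid1ip1 were 1.27 in MKO mice and 0.78 in FLOX mice, and those of Me1 -0.36 and -0.45, and these 4 calls were kept. The covariate lowered the diet changes of Fasn to 0.16 in MKO mice and 0.26 in FLOX mice. On the control diet it ended the genotype call of Me1 given above, turned Scd1 to 0.64 (adjusted p = 0.0330) and brought in Scd2 (0.60) and Mid1ip1 (-0.57, adjusted p = 0.0351). Of other cells, fibroblast markers fell on CR (8 of 10 in MKO mice and 7 of 10 in FLOX mice, 0 higher), endothelial markers were called lower in 5, 2, 3 and 3 of 12 (CR in MKO, CR in FLOX, MKO on CR, MKO on the control diet), and 0 to 2 of 11 macrophage and of 13 Schwann cell markers were called in a comparison. In the same order, 8.48%, 5.37%, 9.05% and 10.2% of all tested genes were called lower. The part of these cell types in the results was not tested.

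The genes around the pathway were read from 5 lists. Among 31 tested lipogenic regulators, 2 rose and 1 fell on CR in MKO mice, and 2 rose and 2 fell in FLOX mice, with medians of -0.03 and -0.04. Scap, the escort that carries SREBP proteins from the endoplasmic reticulum to the Golgi, rose by 0.15 in MKO mice (adjusted p = 0.0233) and by 0.26 in FLOX mice (0.000537). Mlxip, the glucose-sensing relative of ChREBP also called MondoA, fell by 0.23 in MKO mice (0.0286) and by 0.39 in FLOX mice (0.00175). Akt1, a kinase of insulin signalling, rose by 0.43 on CR in MKO mice (0.000665). On the control diet Akt1 was lower in MKO than in FLOX mice (log2 difference -0.33, limma adjusted p = 0.00794). Akt1 averaged 884 in control-diet MKO mice and 1114 in control-diet FLOX mice, and 1201 and 1286 on CR. Between genotypes, 3 regulators were higher and 2 lower in MKO mice on CR, and 1 was higher and 2 lower on the control diet. Mbtps2, the protease that makes the second cut in SREBP activation, was higher in MKO mice by 0.16 on CR (0.00441) and 0.14 on the control diet (0.0132). Nfyc, a subunit of the factor that binds CCAAT boxes, was lower, with log2 differences of -0.15 (0.00259) and -0.11 (0.0213).

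Of 15 tested genes that supply citrate, acetyl-CoA and NADPH, 3 rose and 0 fell on CR in each genotype, and 4 were lower on CR and 6 on the control diet in MKO mice, with 0 higher. The median changes were 0.03 and 0.09 for the diet in MKO and FLOX mice, and -0.13 and -0.09 for the genotype on CR and on the control diet. Apart from Idh1, Pgls of the pentose phosphate pathway rose on CR by 0.19 in MKO mice and 0.17 in FLOX mice. Me3, Slc25a11, Cs and Mdh1 were the 4 called lower in MKO mice on CR, and Idh1 and Pgls were also lower on the control diet. Me3, a mitochondrial malic enzyme, had log2 differences of -0.84 on CR (adjusted p = 2.43e-09) and -0.69 on the control diet (1.45e-07). Those of Cs, citrate synthase, were -0.49 and -0.29, and those of Slc25a11, the oxoglutarate carrier, -0.53 and -0.50. For the diet, Cs rose by 0.16 in FLOX mice (limma adjusted p = 0.0108). Me1 and Me3, cytosolic and mitochondrial malic enzymes, thus differed from FLOX mice in opposite directions.

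Of 15 tested genes of malonyl-CoA control and AMPK, 1 rose and 3 fell on CR in MKO mice and 1 rose and 2 fell in FLOX mice, and 1 was higher and 2 lower in MKO mice on each diet. Prkab2, an AMPK beta subunit, fell on CR by 0.48 in MKO mice (adjusted p = 1.94e-05) and 0.40 in FLOX mice (0.000553). Stk11 (LKB1), the kinase that activates AMPK, fell by 0.12 (0.0347) and 0.18 (0.00507). Prkag3 fell by 0.25 on CR in MKO mice (limma adjusted p = 0.0308). Mlycd, which degrades malonyl-CoA, was lower in MKO mice, with log2 differences of -0.25 on CR (0.0206) and -0.28 on the control diet (0.0084), and so was Prkag1, an AMPK gamma subunit, with -0.19 and -0.23.

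In the list of elongation, desaturation and activation of fatty acids (25 tested), 2 genes rose and 2 fell on CR in MKO mice, and 2 rose and 3 fell in FLOX mice. Acsl5, an acyl-CoA synthetase, fell by 0.23 in MKO mice (adjusted p = 5.02e-05), while Acsl6, of the same family, rose by 0.26 (0.0209). In FLOX mice Acsl3, also of that family, fell by 0.39 (0.00268), while Pecr rose by 0.14 (0.0210). In MKO mice 1 was higher and 4 lower on CR, and 2 higher and 3 lower on the control diet. The log2 difference of Hacd2, a dehydratase of the elongation cycle, was -0.89 on the control diet (0.000458). Hacd2 averaged 202 ± 36.3 in control-diet MKO mice and 396 ± 115 in control-diet FLOX mice (SD). The gap was smaller on CR, with 191 ± 34.8 in MKO mice and 254 ± 79.5 in FLOX mice. Dbi, the acyl-CoA binding protein, differed by -0.23 on CR (0.00311) and -0.26 on the control diet (0.00144). On CR, Acot7, a thioesterase, differed by -0.36 (1.49e-05) and Mecr by -0.23 (limma adjusted p = 0.000169).

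Triglyceride assembly (20 tested) showed 4 rises and 1 fall on CR in MKO mice and 3 rises and 1 fall in FLOX mice, and 5 lower and 0 higher in MKO mice on CR and 4 lower and 0 higher on the control diet. Dgat2, which makes the last acylation, averaged 1188 ± 154 in CR MKO mice and 1762 ± 326 in CR FLOX mice, and 767.6 ± 111 in control-diet MKO mice and 1195 ± 199 in control-diet FLOX mice. It was lower in MKO mice, with log2 differences of -0.55 on CR (adjusted p = 0.00153) and -0.62 on the control diet (0.000452), and rose on CR by 0.62 in MKO mice (0.000434) and 0.55 in FLOX mice (0.00451). Agpat5 rose on CR by 0.24 in MKO mice and 0.25 in FLOX mice, Gpam, the mitochondrial enzyme of the first acylation, fell by 0.31 and 0.29, and Fitm2, a lipid droplet factor, was lower in MKO mice, with log2 differences of -0.41 on CR and -0.26 on the control diet. These counts are read against the shares of all genes given above for each comparison, and no list was tested as a whole.

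**Figure D5:**
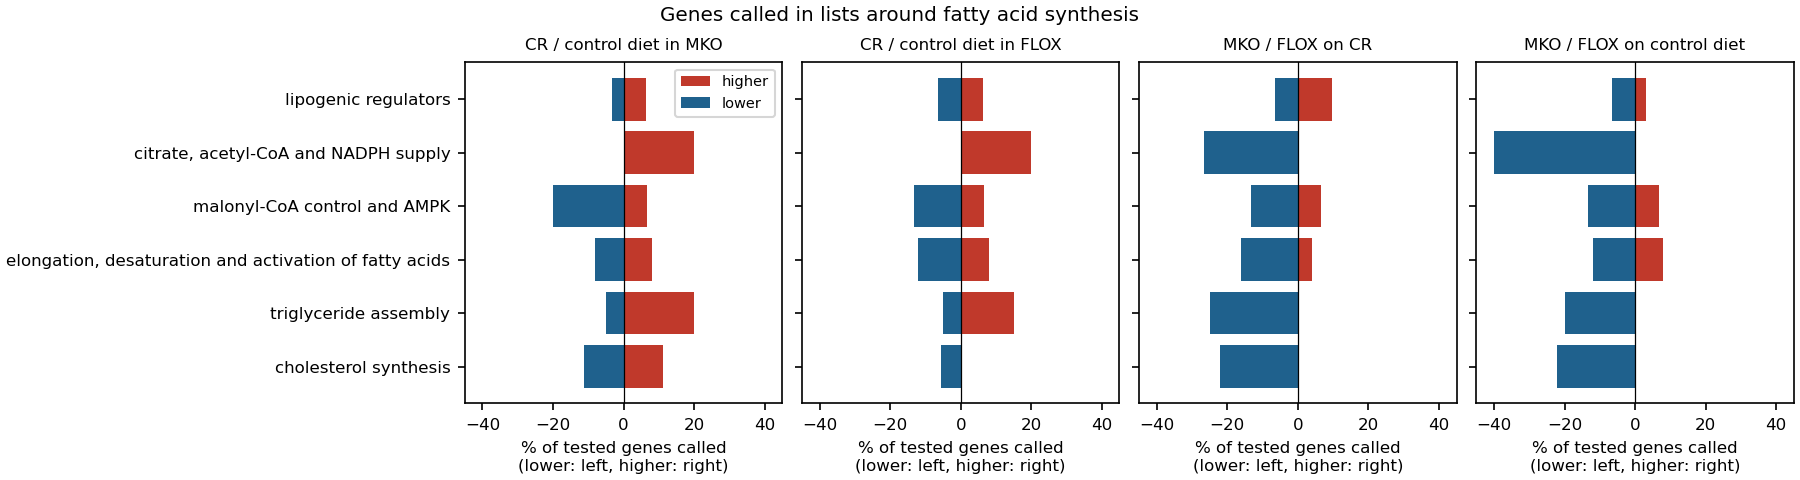
Share of tested genes of each list (x axis, %) called at an adjusted p under 0.05 in the 4 comparisons, higher to the right (red) and lower to the left (blue); the lists hold 31, 15, 15, 25, 20 and 18 tested genes from top to bottom. Citrate, acetyl-CoA and NADPH supply has calls to the right only for CR and to the left only for MKO.

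The diet by genotype interaction was called for 0 of the 10 genes and for 0 of all 14854 (0% by limma), with 0 of the 10 genes and 720 of all at an unadjusted p under 0.05. Among the tested probe sets of the members, the smallest p was that of Mid1ip1 given above, followed by Srebf1. Tested singly, the probe sets gave calls in the same genes: of 23, 3 were called for the diet in MKO mice (11.1% of all probe sets), 3 in FLOX mice (6.99%), 3 between genotypes on CR (12.5%) and 2 on the control diet (13.4%), all of them of Mid1ip1, Me1 and Srebf1. Where a gene had several probe sets they did not always move alike: the Acly probe set 1446315_at had a log2 change of -0.05 on CR in MKO mice, while the other 5 Acly probe sets had 0.08 to 0.23. The Elovl6 probe set 1442656_at was flat, averaging 141 in CR and 143 in control-diet MKO mice, and 142 and 141 in FLOX mice. For 1417403_at these means were 147, 127, 155 and 141, and for the tested probe set of Elovl6 184, 139, 200 and 181. The dimmer Acaca probe set (1427595_at) changed by -0.04 on CR in FLOX mice, where the tested one changed by 0.15. Its interaction was 0.17, with a limma unadjusted p of 0.0337, smaller than that of Mid1ip1, and it was not called after adjustment.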

How the data were processed

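Each of 26 mice gave 1 array. The authors deposited 1 linear intensity per probe set and array; how the intensities were computed, with which background correction and scaling, the sources used here do not say. Log2(intensity + 16) was taken from them with no further scaling, which understates the change of dim genes. Probe sets naming 1 gene in the platform annotation (34945 of 45101, symbols updated through gene identifiers) were used, those with a mean under the 30th percentile (7.47) were dropped, and the brightest per gene was kept (14854 genes). limma 3.58.1 in R 4.3.3 fitted 1 mean per group over all 26 arrays, with Benjamini-Hochberg adjustment over all genes and a threshold of 0.05. Probe sets were also tested singly, without the filter. The adipocyte level was compared by exact permutation of mice. The 10 genes, the lists and the tests were chosen with earlier results of these data known. Named are the 10 genes, Ppargc1a, per list and comparison the 2 called genes of smallest p, the 5 genes most like Mid1ip1, and Adipoq, Cidec and Lep; other called markers, Pgls, Stk11 and second comparisons of named genes were added after their values were seen. Alternatives changed the pseudocount, filter, normalization, probe set choice, variance model, array weights, arrays fitted, threshold, a replicate block, an adipocyte covariate, and left out each mouse in turn. The code was tested on simulated data. Scan dates were not used. The number of mice limits the precision.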

Additional observations from a re-analysis of the deposited data

Results flagged for a closer look

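In 5 of 40 groups of values (10 genes in 4 groups) the highest mouse lay further from the others than Dixon's 95% limit allows, and chance alone marks about 1 in 20 such groups. The 40 share the same mice and several of the genes vary together, so the 5 are not separate events to set against that rate. All 5 were control-diet FLOX mice. In 4 of them it was mouse 3: Acaca at 970, where the other 5 mice reached at most 532, Acly at 1548 (at most 727), Elovl6 at 378 (at most 157) and Me1 at 5574 (at most 4505). In mouse 2, Acacb was 2646, where the others reached at most 2436. The values of Fasn (2689) and Scd1 (12285) in mouse 3, though the highest of all arrays, stayed inside the limit because the other mice of that group also spread widely.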

How the results depend on the processing

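Over 1985 alternative values for 50 pairs of gene and comparison, 1861 kept their direction and side of the threshold, 78 (in 23 pairs) had the other sign but were called under neither setting, 18 were no longer called, 27 became called and 1 changed sign with a call. The diet calls of Mid1ip1 and Me1 and the calls of Srebf1 and Me1 on CR were kept under all alternatives, except that at an adjusted p under 0.01 Mid1ip1 was lost in FLOX mice, which left 1 gene. The 2 calls between genotypes on the control diet were the least stable. They became 1 with array weights, 0 with only the arrays compared (fewer arrays for the spread), 0 at an adjusted p under 0.01, 4 at one under 0.1, and 4 with the adipocyte covariate, and 0 to 3 without 1 mouse; the cause was not tested. That covariate turned Scd1 to 0.64 (adjusted p = 0.0330, -0.08 without it), brought in Scd2 (0.60, adjusted p = 0.00652) and Mid1ip1 (-0.57, adjusted p = 0.0351) and lost Me1 (0.22, adjusted p = 0.0729); on CR it also brought in Scd2 (0.55, adjusted p = 0.00825). Srebf1 on CR against the control diet in MKO mice passed with quantile normalization (adjusted p = 0.0494), only the arrays compared (0.0457) and without each of 6 mice. Without 1 mouse, the count of called genes was 2 to 3 for the diet in either genotype and for the genotype on CR, and 0 for the interaction. Of the single probe sets 11 calls were made in all, and 9 to 14 without 1 mouse. The number in the array title pairs no mice by its label, and 37 pairs of the same number correlated at -0.36 to 0.34 (median 0.08), with 2 of 26 arrays closest to their own number. With that replicate block, 16 probe set calls were made, Srebf1 passed for CR in MKO mice (adjusted p = 0.0363) and Acacb for MKO on the control diet (-0.19, adjusted p = 0.0296). Intensities have a floor near 57 to 63, so changes of dim probe sets such as those of Elovl6 are compressed.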

Other observations

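Cholesterol synthesis, the other branch that SREBP proteins are known to govern, was read from 18 tested genes. On CR, 2 rose and 2 fell in MKO mice, and 0 rose and 1 fell in FLOX mice, with median log2 changes of 0.00 in both. Sc5d, which acts near the end of the pathway, fell by 0.14 in MKO mice (limma adjusted p = 0.0224) and by 0.21 in FLOX mice (0.00265), and Fdft1, squalene synthase, rose by 0.31 in MKO mice (0.00588). Between genotypes, 4 were lower and 0 higher in MKO mice on each diet, with medians of -0.03 on CR and 0.00 on the control diet. Of all tested genes, 9.05% were called lower on CR and 10.2% on the control diet. The diet counts are likewise read against the shares given above, and this list was not tested as a whole. Dhcr7, which makes the last step, differed by -0.18 on CR (0.00252) and -0.23 on the control diet (0.000258), and Fdft1 by -0.25 (0.0269) and -0.32 (0.00458). Tm7sf2 differed by -0.23 on CR (limma adjusted p = 0.00638). Srebf1 itself was higher in the same mice. Srebf2, the gene of the SREBP that mainly drives cholesterol synthesis and no gene of the naming rule, did not pass in any of the 4 comparisons of diet and genotype, with log2 changes between -0.08 and -0.03.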
